A study of Mus musculus with 5 samples.

Results

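Ribosome biogenesis factors are the proteins that make and process ribosomal RNA and assemble it with ribosomal proteins into subunits, without staying in the finished ribosome. The 54 genes described here are nucleolar factors of this kind, chosen by name and function with earlier results of these data known, and 54 of the 54 were among the 12934 genes in the deposited counts. EpH4 is an untransformed cell line of mouse mammary epithelium. All cells compared carried Cas9 from a lentivirus. The sgControl cells (3 libraries) also received a control sgRNA and the sgMef2d cells (2 libraries) an sgRNA against Mef2d, a transcription factor gene of the MEF2 family. The study's methods describe drug-selected stable cells and more than one sgRNA against Mef2d. Neither the labels nor the methods give the sgRNA or the number of clones behind each library. The methods state in general that experiments were repeated independently, without tying this to the libraries, so that the p-values measure the spread between these libraries, which may be technical.

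Ribosome biogenesis starts in the nucleolus, where RNA polymerase I transcribes the ribosomal RNA precursor. Small nucleolar ribonucleoproteins (snoRNPs) modify the precursor, with box C/D particles guiding methylation and box H/ACA particles guiding pseudouridylation. The small subunit processome and a succession of large subunit assembly factors then fold and cleave it. The pathway is known for its high cost to growing cells and for its transcriptional control by MYC.

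The question for these genes was whether their RNA differed between sgMef2d and sgControl EpH4 cells. The libraries held between 13601145 and 20498563 counts. Levels are given as CPM, counts scaled to a common library total with TMM normalization, in the order of the replicate numbers. Differences are log2 fold changes of sgMef2d over sgControl with their standard error (SE), and a gene was called where the adjusted p (Benjamini-Hochberg over the 12483 genes tested) of edgeR's quasi-likelihood test lay below 0.05. The targeted gene, Mef2d, had 64.3, 76.9 and 71.5 CPM in sgControl and 64.2 and 65.8 CPM in sgMef2d (log2 fold change -0.12, SE 0.080, adjusted p = 0.4), and the groups overlapped. Without sgControl 1, the lowest sgControl library for this gene, Mef2d was called lower (log2 fold change -0.19, adjusted p = 0.00549), in a range of 0.00549 to 0.77 over its alternatives. The library sgControl 1 stood apart from the other sgControl libraries, and its values are given beside the results it touches. Of 39 cell type markers, 22 were among the genes analysed here. The 8 simple epithelial markers among them, with Krt7, Krt8 and Krt18 at the highest levels, summed to between 4112 and 4317 CPM in sgControl and to 3919 and 4085 CPM in sgMef2d, with Krt18 lower and Cldn4 higher among the called genes. The luminal markers Esr1 and Prlr were not called, with means of 5.85 and 0.398 CPM in sgControl and 4.83 and 1.17 CPM in sgMef2d. Esr1 lay lower and Prlr, with 3 to 20 counts per library, higher in both sgMef2d libraries than in any sgControl library. The milk protein genes, Elf5, Pgr, Krt19 (simple epithelial), Lum (fibroblast), Myh11 and Oxtr were not among the genes analysed. Neither were the immune and endothelial markers Ptprc, Adgre1, Cd3e, Pecam1, Cdh5 and Kdr. The other immune markers, Cd68 and Lyz2, had between 1 and 19 counts per library and were not called, and they summed to 1.02, 0.851 and 1.47 CPM in sgControl and to 1.77 and 2.29 CPM in sgMef2d. The 4 basal markers summed to between 483 and 490.2 CPM in sgControl and to 947 and 1005 CPM in sgMef2d, most of it Krt14. Krt14, Trp63 and Krt5 rose, the last from a mean of 0.0732 CPM in sgControl to 14.8 CPM in sgMef2d, while Acta2 fell, from 18.6 to 10.6 CPM. The 6 fibroblast markers summed to between 642 and 767 CPM in sgControl and to 608 and 649.9 CPM in sgMef2d, with Col1a2 lower and Col3a1 and Dcn higher among the called genes. The part of these shifts in the levels of the ribosome biogenesis factors was not tested. In bulk RNA, fewer cells of a type and less RNA per cell cannot be told apart.

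Of the 54 ribosome biogenesis factors tested, 4 rose in sgMef2d cells and 50 were not called. The log2 fold changes were small and mostly positive, and no test of the genes as a group was made. In 50 of the 54 members there was a log2 fold change above 0, against 50.7% of all genes tested. The median over the 54 was 0.12, a difference of 8.55%, against 0.0031 for all genes. The quartiles lay at 0.061 and 0.17, against -0.126 and 0.118 for all genes. The range ran from -0.11 for Dimt1 to 0.27 for Nle1, or from 0.925-fold to 1.21-fold. Bysl, Nhp2, Rrp12 and Nolc1 rose, which makes 4 of 54 members called (7.41%) against 3.67% of all genes tested that were called higher, 4.28% called lower and 7.95% called in either direction. DESeq2 called 3 members, against 2.98% of all genes called higher, and limma-voom 4, against 3.61%, all among these, with Nolc1 the one that DESeq2 did not call. None was called lower by edgeR, none by DESeq2 or limma-voom, and none was lower at an unadjusted p below 0.05, while 18 members (33.3%) were higher at that level against 11.2% of all genes. Both sgMef2d libraries lay above all sgControl libraries in 28 members (51.9%), against 20.6% of all genes, below them in 1, against 20.5% of all genes, and overlapped them in 25. These shares of all genes also apply to the counts by role below. The members had higher levels than all genes tested (median average log2 CPM 7.23 against 4.95) and a smaller median SE (0.063 against 0.0922). The part of level and SE in these shares was not tested.

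**Figure D1:**
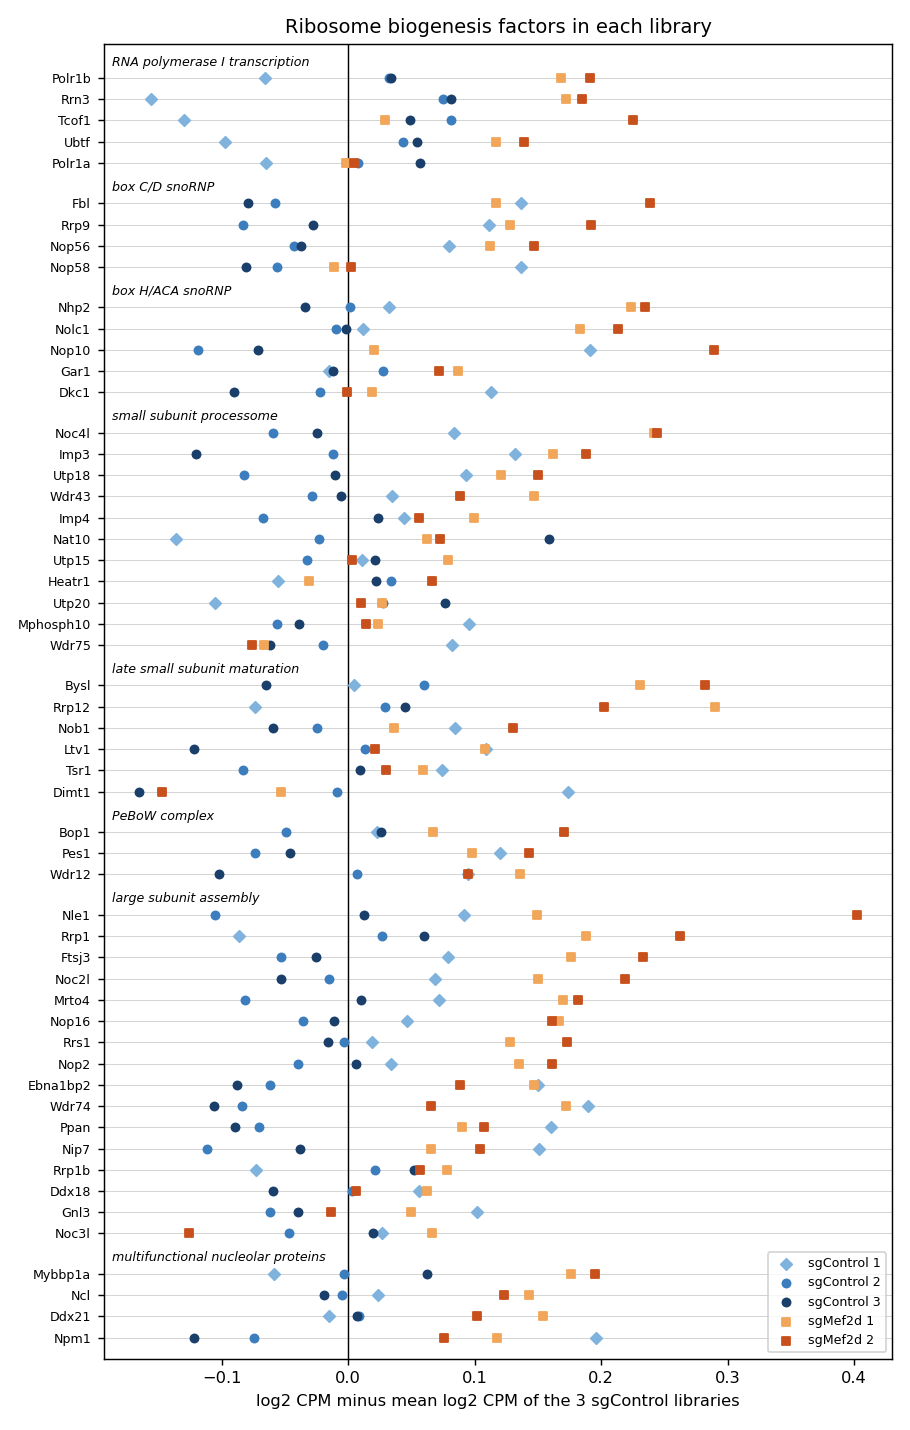
Level of each of the 54 ribosome biogenesis factors in each of the 5 libraries, as the log2 difference from that gene's mean over the 3 sgControl libraries (horizontal axis), with members grouped by role. The medians over the members are 0.063, -0.024 and -0.017 in sgControl 1, 2 and 3 and 0.12 and 0.13 in sgMef2d 1 and 2.

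The members together took 1.35%, 1.29% and 1.29% of the counts in sgControl 1, 2 and 3 and 1.41% in each sgMef2d library. Their summed level was 13453, 12833 and 12842 CPM in sgControl and 14135 and 14142 CPM in sgMef2d, so that both sgMef2d libraries lay above all sgControl libraries. Ncl alone held 19.9% and Npm1 10.5% of this sum in sgControl. Per kilobase of exon, the sgControl levels ran from 516 CPM per kilobase for Npm1, 255 for Ncl and 155 for Nhp2 down to 8.53 for Nle1 and 8.23 for Wdr12. The members had 361 to 54111 counts per gene and library, with the lowest count in Nle1, and the SE of the log2 fold change was between 0.054 and 0.11. Of the 50 members not called, 36 had a 95% confidence interval that held 0 and 14 had an interval above 0. The upper bound of the interval lay below 1.5-fold in 54 of the 54 members.

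**Figure D2:**
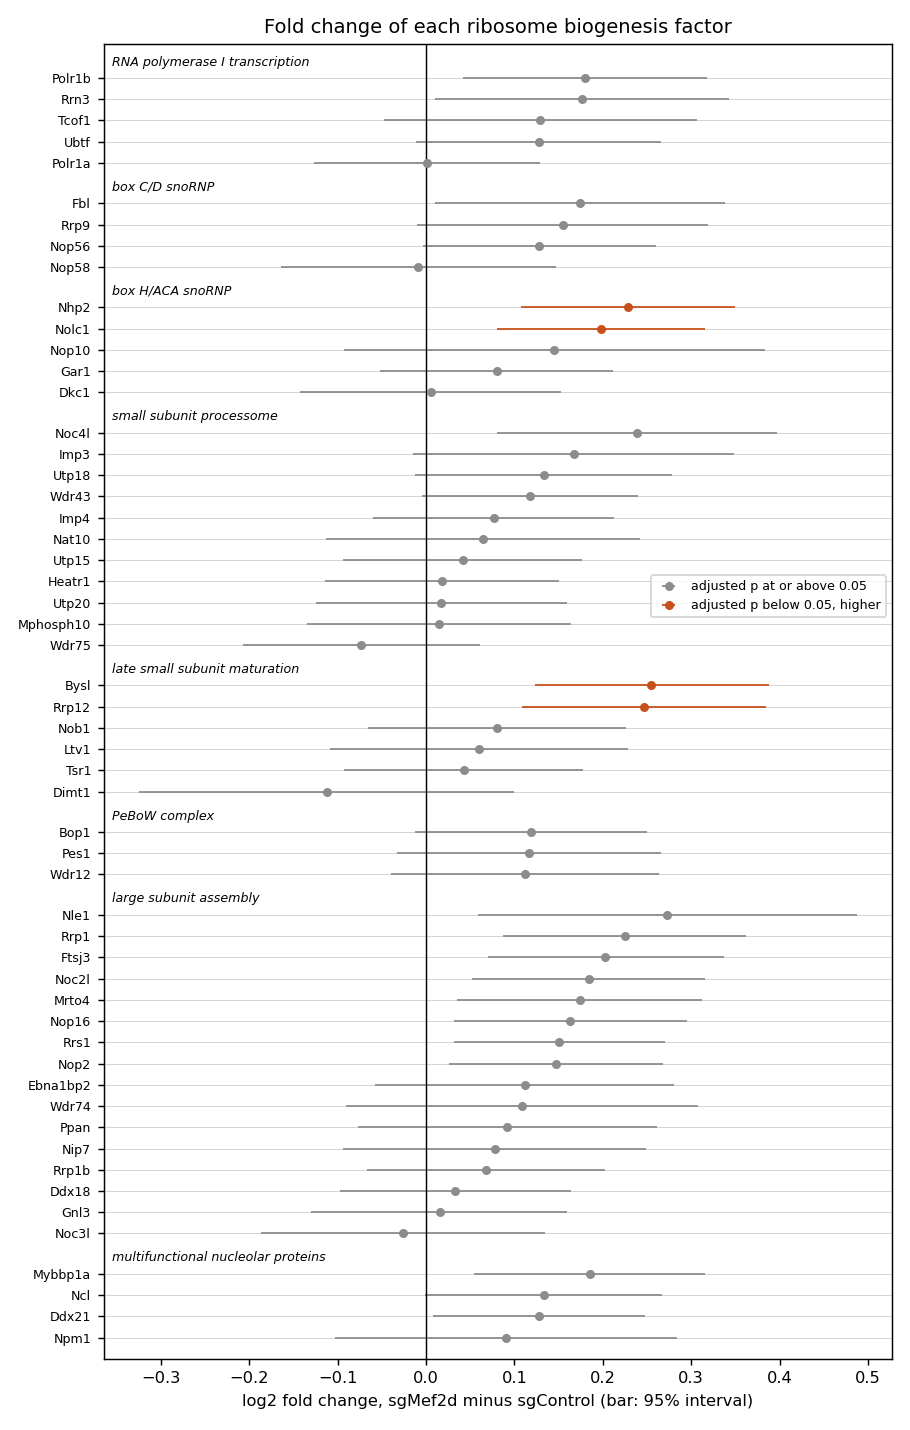
Log2 fold change of sgMef2d over sgControl for each of the 54 members (points) with its 95% confidence interval (bars), grouped by role. The called genes Bysl, Nhp2, Rrp12 and Nolc1 are marked, and the points run from -0.11 to 0.27.

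The members lie on 19 chromosomes, with 9 of them on chromosome 11, and their promoters were compared as a feature that the choice of genes did not use. The RefSeq table of promoters (GRCm38.p6, from 250 bases before to 50 bases after each start) held 48 of the 54 members. CACGTG, the canonical E-box bound by MYC with MAX, was found on either strand in 11 of the 48 (22.9%, exact 95% confidence interval 12.0% to 37.3%), against 8.09% of all genes in the table and 12.1% of the genes tested. Of the 12 E-boxes, 7 (58.3%) began after the start site, against 14.1% of those of the genes tested, and upstream of the start alone the share of members was 8.33%, against 6.86% of all genes and 10.2% of the genes tested, so that the members lay above the genes tested over the whole window and below them upstream of the start. A window of 30 bases around each E-box, read along the gene's strand with the E-box in capitals, is shown so that the flanks and the place of each site can be compared.

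Imp4, chr1:34439696-34439725 (+): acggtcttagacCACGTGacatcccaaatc
Ltv1, chr10:13193092-13193121 (-): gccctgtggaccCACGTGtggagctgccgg
Mybbp1a, chr11:72441347-72441376 (+): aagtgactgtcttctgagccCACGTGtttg
Nle1, chr11:82908355-82908384 (-): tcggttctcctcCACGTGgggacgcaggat
Nop2, chr6:125131811-125131840 (+): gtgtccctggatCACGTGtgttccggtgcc
Pes1, chr11:3963965-3963994 (+): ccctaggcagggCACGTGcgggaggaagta
Rrn3, distal, chr16:13780472-13780501 (+): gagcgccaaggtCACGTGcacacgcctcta
Rrn3, proximal, chr16:13780639-13780668 (+): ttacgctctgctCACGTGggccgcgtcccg
Tsr1, chr11:74898092-74898121 (+): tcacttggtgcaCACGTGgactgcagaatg
Utp18, chr11:93885769-93885798 (-): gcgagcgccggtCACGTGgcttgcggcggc
Utp20, chr10:88826765-88826794 (-): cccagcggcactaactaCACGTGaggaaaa
Wdr43, chr17:71616220-71616249 (+): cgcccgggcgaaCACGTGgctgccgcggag

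The fold changes of members with and without an E-box lay close together. The 11 members with CACGTG had a median log2 fold change of 0.12 and 0 of them were called, and the 37 without it had a median of 0.11 with 3 called. CACGCG, a related sequence, occurred in 16 of 48 members (33.3%), against 10.5% of all genes and 20.6% of the genes tested. Upstream of the start alone it occurred in 7 of 48 (14.6%), against 8.65% of all genes and 17.0% of the genes tested. The 16 members with it had a median of 0.14 and the 32 without it one of 0.095. All 3 called members in the table held it, and the window upstream of the start is shown for Bysl and Nolc1, in which it lies upstream (in capitals; as its reverse complement CGCGTG in Nolc1). In Nhp2 it does not lie wholly upstream of the start.

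Bysl, chr17:47611493-47611742 (-): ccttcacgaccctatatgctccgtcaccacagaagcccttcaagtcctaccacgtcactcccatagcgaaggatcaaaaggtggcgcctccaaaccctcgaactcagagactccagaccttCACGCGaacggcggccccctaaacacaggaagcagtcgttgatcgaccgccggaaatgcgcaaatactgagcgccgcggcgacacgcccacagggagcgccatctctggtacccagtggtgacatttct
Nolc1, chr19:46075597-46075846 (+): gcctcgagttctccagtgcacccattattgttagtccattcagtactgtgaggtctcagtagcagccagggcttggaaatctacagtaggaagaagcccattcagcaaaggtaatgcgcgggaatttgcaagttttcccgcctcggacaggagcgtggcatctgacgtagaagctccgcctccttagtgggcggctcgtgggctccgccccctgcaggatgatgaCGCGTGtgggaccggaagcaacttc

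The E-box variant CATGTG was held by 9 of 48 members (18.8%), against 10.1% of the genes tested and 15.9% of all genes. Upstream of the start alone it was held by 5 (10.4%), against 8.76% of the genes tested and 13.8% of all genes. TATAAA was held by 3 (6.25%, against 8.43%) and the MEF2 consensus site by 1, Dkc1 (2.08%, against 1.92%). The median number of CpG dinucleotides per promoter was 21 in the members and 21 in the genes tested, against 7 over all promoters. These matches are letters in a fixed window, and neither binding nor the RNA of the ribosomal precursor was measured.

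RNA polymerase I factors recruit and form the enzyme that transcribes the ribosomal RNA genes. None of the 5 was called, and 2 were higher at an unadjusted p below 0.05. All 5 had a log2 fold change above 0, with a median of 0.13 that was 0.079 without sgControl 1, and all 5 were lowest in that library. Polr1b, the second largest subunit of RNA polymerase I, had 74.5, 79.7 and 79.8 CPM in sgControl and 87.6 and 89 CPM in sgMef2d (log2 fold change 0.18, SE 0.063, adjusted p = 0.11). Rrn3, the initiation factor that tethers the polymerase to the promoter, had 108, 126 and 127 CPM in sgControl and 135 and 136 CPM in sgMef2d (log2 fold change 0.18, SE 0.076, adjusted p = 0.19). In both genes the sgMef2d libraries lay above every sgControl library, as they did in Ubtf, the factor that keeps the ribosomal RNA genes open. Polr1a, the largest subunit, had 229, 241 and 249 CPM in sgControl and 239 and 240 CPM in sgMef2d (log2 fold change 0.00094, SE 0.058, adjusted p = 0.995), and its sgMef2d values lay inside the sgControl range. The difference between these subunits was not tested, and the 95% intervals of their log2 fold changes, from -0.13 to 0.13 for Polr1a and from 0.042 to 0.32 for Polr1b, overlap.

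Box C/D snoRNP proteins carry out the methylation of ribosomal RNA. None of the 4 was called, and 1, Fbl, was higher at an unadjusted p below 0.05. The median log2 fold change was 0.14, and all 4 genes were highest among the sgControl libraries in sgControl 1. Fbl, the methyltransferase fibrillarin, had 204, 179 and 176 CPM in sgControl and 202 and 219 CPM in sgMef2d (log2 fold change 0.17, SE 0.075, adjusted p = 0.188), and sgMef2d 1 lay below sgControl 1. Nop56, a core protein of the particle, had 402, 369 and 370.3 CPM in sgControl and 411 and 421 CPM in sgMef2d (log2 fold change 0.13, SE 0.060, adjusted p = 0.227), with no overlap between the groups. Nop58, its paralog in the same particle, had 494, 432 and 425 CPM in sgControl and 445 and 449.8 CPM in sgMef2d (log2 fold change -0.0085, SE 0.071, adjusted p = 0.961), with sgControl 1 the highest of all 5 libraries. Reads of Fbl and Nop56 could be shared with copies, since 19.0% and 18.6% of the 50-base words in their transcripts occur in other genes.

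Box H/ACA snoRNP proteins carry out pseudouridylation and also hold telomerase RNA. Of the 5, Nhp2 and Nolc1 rose (both calls were lost with the replicate block and without any single library other than sgControl 1, and that of Nolc1 also with DESeq2 and with library totals only), and the median log2 fold change was 0.15, or 0.083 without sgMef2d 2, 0.094 without sgControl 2 and 0.079 with the trend in transcript length and GC content removed. Nhp2 (ENSMUSG00000001056.3, chromosome 11, 51619735 to 51623714 in GRCm38), an RNA-binding core protein, had 181, 178 and 173 CPM in sgControl and 207 and 209 CPM in sgMef2d, with means of 177 ± 4.1 CPM (SD, n = 3) and 208 ± 1.12 CPM (SD, n = 2) (log2 fold change 0.23, SE 0.055, adjusted p = 0.0278). Nolc1 (ENSMUSG00000015176.11, chromosome 19, 46075863 to 46085530), a chaperone that carries snoRNPs between Cajal bodies and the nucleolus, had 341, 336 and 338 CPM in sgControl and 384 and 393 CPM in sgMef2d, with means of 339 ± 2.57 CPM (SD, n = 3) and 388 ± 5.78 CPM (SD, n = 2) (log2 fold change 0.20, SE 0.054, adjusted p = 0.0449). The groups did not overlap in either gene. Dkc1, the pseudouridine synthase dyskerin at the heart of the particle, had 221, 201 and 192 CPM in sgControl and 207 and 204 CPM in sgMef2d (log2 fold change 0.0055, SE 0.067, adjusted p = 0.974), and its sgMef2d values lay inside the sgControl range. Gar1 and Nop10, the other core proteins, had log2 fold changes of 0.080 and 0.15 with adjusted p of 0.469 and 0.467.

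The small subunit processome is the large particle that folds and cleaves the small subunit's RNA. Its 11 genes had a median log2 fold change of 0.065, with none called and 1 higher at an unadjusted p below 0.05. Noc4l, a protein required for nuclear steps of small subunit assembly, had 46, 41.6 and 42.7 CPM in sgControl and 51.3 and 51.4 CPM in sgMef2d (log2 fold change 0.24, SE 0.072, adjusted p = 0.0686). Wdr43, a scaffold protein of the particle, had 316, 303 and 307 CPM in sgControl and 342 and 328 CPM in sgMef2d (log2 fold change 0.12, SE 0.056, adjusted p = 0.231). Both genes separated the groups, as did Imp3, Imp4 and Utp18. Mphosph10, a partner of Imp3 and Imp4, had 81.2, 73.1 and 74 CPM in sgControl and 77.3 and 76.8 CPM in sgMef2d (log2 fold change 0.015, SE 0.068, adjusted p = 0.924), with the sgMef2d values inside the sgControl range. Wdr75 was the single member with both sgMef2d libraries below every sgControl library, at 222, 207 and 201 CPM in sgControl and 200.1 and 199 CPM in sgMef2d (log2 fold change -0.073, SE 0.061, adjusted p = 0.525), with sgControl 3 and the sgMef2d libraries close together.

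Late small subunit maturation factors carry the precursor out of the nucleolus and finish its RNA in the cytoplasm. Bysl and Rrp12 rose, the other 4 of the 6 genes were not called, and the median log2 fold change was 0.070, or 0.12 without sgControl 1. Bysl (ENSMUSG00000023988.8, chromosome 17, 47599331 to 47611492), bystin, which stays with the precursor during export, had 138, 143 and 131 CPM in sgControl and 161 and 167 CPM in sgMef2d, with means of 137 ± 5.96 CPM (SD, n = 3) and 164 ± 4.1 CPM (SD, n = 2) (log2 fold change 0.26, SE 0.060, adjusted p = 0.0255). Rrp12 (ENSMUSG00000035049.4, chromosome 19, 41862851 to 41896173), an export factor, had 117, 126 and 127 CPM in sgControl and 150.4 and 142 CPM in sgMef2d, with means of 123 ± 5.45 CPM (SD, n = 3) and 146 ± 6.28 CPM (SD, n = 2) (log2 fold change 0.25, SE 0.063, adjusted p = 0.0346). The sgMef2d libraries lay above all sgControl libraries in both. The call of Bysl was lost with the replicate block and without any single library other than sgControl 1, and that of Rrp12 without sgControl 2, sgMef2d 1 or sgMef2d 2. Exons of Bysl overlap those of Ccnd3 on the other strand over 9.37% of their length, and the strand setting of the counting is not given in the sources used here. Tsr1, a GTPase-like factor of the late precursor, had 269, 241 and 257 CPM in sgControl and 266 and 261 CPM in sgMef2d (log2 fold change 0.043, SE 0.062, adjusted p = 0.733). Dimt1, a dimethyltransferase of the small subunit's RNA, had the lowest log2 fold change of the members, with 50.2, 44.2 and 39.6 CPM in sgControl and 42.8 and 40.1 CPM in sgMef2d (log2 fold change -0.11, SE 0.097, adjusted p = 0.54), and its groups overlapped. Without sgControl 1, its highest library, the log2 fold change of Dimt1 was -0.014, and that of Utp20, at -0.034, was the lowest of the members, while without sgMef2d 2 it was -0.069 and Wdr75 was lowest at -0.072. The exons of Dimt1 overlap Kif2a on the other strand over 31.9% of their length, and those of Tsr1 overlap Srr over 32.3%.

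The PeBoW complex of Pes1, Bop1 and Wdr12 processes the large subunit's RNA. With all 5 libraries, the log2 fold changes of its 3 subunits were nearly equal, none was called, and none passed an unadjusted p of 0.05. The single sgMef2d libraries differed more. In sgMef2d 1 and 2 the log2 differences from the sgControl mean were 0.067 and 0.171 for Bop1, 0.0978 and 0.143 for Pes1 and 0.136 and 0.0947 for Wdr12. Bop1 had 174, 165 and 174 CPM in sgControl and 179 and 193 CPM in sgMef2d (log2 fold change 0.12, SE 0.060, adjusted p = 0.263). Pes1 had 202, 176 and 179.6 CPM in sgControl and 199 and 205 CPM in sgMef2d (log2 fold change 0.12, SE 0.068, adjusted p = 0.34), and Wdr12 had 105, 98.7 and 91.5 CPM in sgControl and 108 and 105 CPM in sgMef2d (log2 fold change 0.11, SE 0.069, adjusted p = 0.369). Bop1 separated the groups, while in Pes1 and Wdr12 sgControl 1 reached the sgMef2d values.

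Large subunit assembly factors were the most numerous role, with 16 genes. The median log2 fold change was 0.13 and none was called. At an unadjusted p below 0.05, 8 were higher, against 11.2% of all genes. In 9 both sgMef2d libraries lay above every sgControl library, against 20.6% of all genes. Rrp1, a nucleolar assembly factor, had 186, 202 and 206 CPM in sgControl and 225 and 237 CPM in sgMef2d (log2 fold change 0.23, SE 0.063, adjusted p = 0.0512), just outside the threshold. Ftsj3, a methyltransferase that acts in precursor processing, had 217, 198 and 202 CPM in sgControl and 232 and 241 CPM in sgMef2d (log2 fold change 0.20, SE 0.061, adjusted p = 0.0665). Neither gene overlapped between the groups. Nle1, which serves in the release of late factors, had the highest log2 fold change of the members and a low level, with 29.4, 25.6 and 27.8 CPM in sgControl and 30.5 and 36.4 CPM in sgMef2d (log2 fold change 0.27, SE 0.098, adjusted p = 0.118). Without sgMef2d 2, its highest library, the log2 fold change of Nle1 was 0.14 and Rrp12 was highest at 0.29, and without sgControl 2 Bysl was highest at 0.29. Noc2l (0.18), Rrs1 (0.15), Mrto4 (0.17), Nop16 (0.16), Nop2 (0.15) and Rrp1b (0.068), given by their log2 fold changes, also separated the groups. Exons of Noc2l overlap those of Samd11 on the other strand over 20.9% of their length. Other genes hold 12.0% of the 50-base words of Mrto4 and 6.3% of those of Rrs1. Gnl3, the GTPase nucleostemin, had 163, 145 and 147 CPM in sgControl and 157 and 150.1 CPM in sgMef2d (log2 fold change 0.015, SE 0.066, adjusted p = 0.918), with the groups overlapping. Ddx18, an RNA helicase with a log2 fold change of 0.033, shares 55.9% of its 50-base words with other genes, most with Gm16433, so that its counts are uncertain.

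The multifunctional nucleolar proteins act in several steps, and all 4 were among the 6 members above 100 CPM per kilobase of exon in sgControl. None of the 4 was called and 2 were higher at an unadjusted p below 0.05. The median log2 fold change was 0.13. Mybbp1a, a repressor of ribosomal RNA transcription and processing factor, had 779, 809 and 847 CPM in sgControl and 917 and 929 CPM in sgMef2d (log2 fold change 0.19, SE 0.060, adjusted p = 0.0872). Ddx21, an RNA helicase that links RNA polymerase I and snoRNPs, had 539, 548 and 548 CPM in sgControl and 606 and 585 CPM in sgMef2d (log2 fold change 0.13, SE 0.055, adjusted p = 0.188). Ncl, nucleolin, an RNA chaperone of the precursor, had 2638, 2587 and 2562 CPM in sgControl and 2865 and 2827 CPM in sgMef2d (log2 fold change 0.13, SE 0.061, adjusted p = 0.22). In these genes both sgMef2d libraries lay above all sgControl libraries. Npm1, the histone and ribosome chaperone nucleophosmin, had 1568, 1300 and 1258 CPM in sgControl and 1486 and 1443 CPM in sgMef2d (log2 fold change 0.090, SE 0.088, adjusted p = 0.591), with sgControl 1 the highest of all libraries. Other genes hold 24.3% of the 50-base words of Npm1.

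The number of members called changed with each library that was left out, most with sgControl 1. It was the highest sgControl library in 37 of the 54 members (68.5%, against 39.0% of all genes), the lowest in 14 and between the others in 3. Without it, 33 of the 54 members were called higher and none lower, against 14.6% of all genes called higher. The median log2 fold change was then 0.15, although 47 rather than 50 members lay above 0. These 33, which include the 4 genes called with all libraries, were 12 of 16 large subunit factors, 4 of 11 of the processome, all 4 multifunctional proteins, all 3 PeBoW subunits, 3 of 4 box C/D, 3 of 5 box H/ACA, 3 of 6 late small subunit and 1 of 5 RNA polymerase I genes. By edgeR's quasi-likelihood test, 0 members were called without sgControl 2, 0 without sgMef2d 1 and 0 without sgMef2d 2, with 11, 8 and 4 members at an unadjusted p below 0.05, and 1 (Rrp12) without sgControl 3. The shares of all genes called higher in those settings were 2.40%, 1.06%, 1.07% and 3.14%. The fits with 1 sgMef2d library assume that it varies as the sgControl libraries do. With all 5 libraries, other treatments of the counts, apart from the removal of length and GC trends, left between 2 and 5 members called. The number was 4 with RLE factors (3.63% of all genes called higher), 5 with upper quartile factors (3.79%), 3 with library totals only (3.49%), 4 without a filter (3.51%), 4 with a filter at 1 CPM (3.82%), 4 with the legacy form of the test (3.61%) and 2 with the replicate number as a block (4.73%). The median of the members was between 0.094 and 0.15 whichever library was left out.

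**Figure D3:**
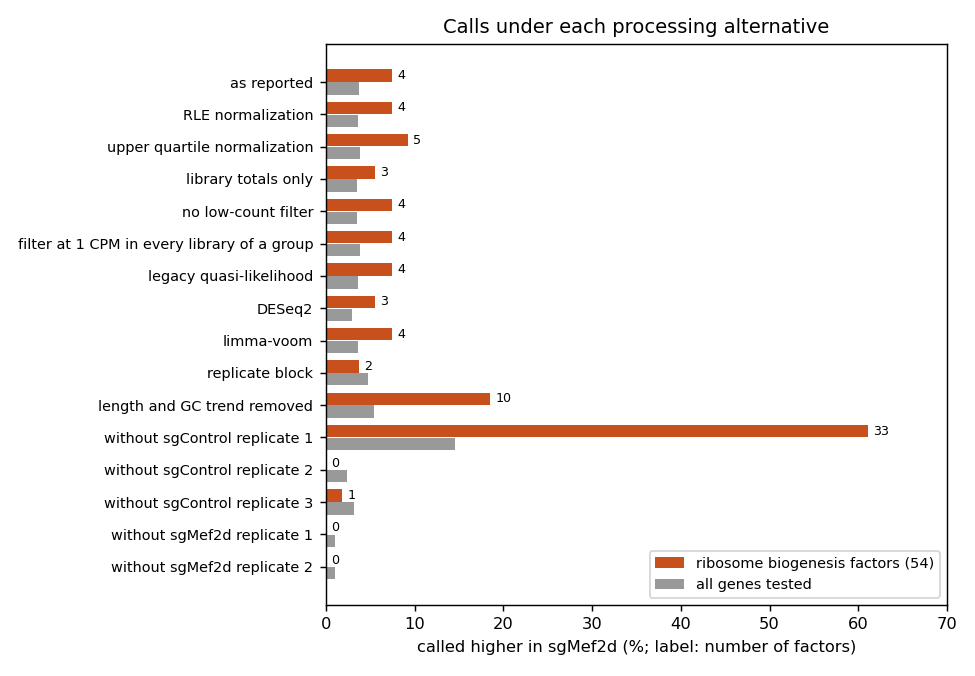
Percentage called higher in sgMef2d (horizontal axis) among the 54 members, with their number as the label, and among all genes tested, with all 5 libraries, under each alternative treatment of the counts and without each library in turn (vertical axis). The number of members is 4 as reported, 33 without sgControl 1, 10 with the length and GC trend removed, and between 0 and 5 in the other settings.

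The deviation of sgControl 1 and the differences between the groups both moved with transcript length. Across the 54 members, the log2 level of sgControl 1 minus the mean of sgControl 2 and 3 had a Spearman correlation of -0.47 with the length of the longest annotated transcript, against -0.41 across all genes tested. The same transcripts, libraries and depths stand behind all of these points, so that they are a description. The median deviation was 0.13 in the 18 members with the shortest transcripts, 0.12 in the middle 18 and -0.086 in the longest 18, where sgControl 1 lay above that mean in 7. The log2 fold changes of sgMef2d over sgControl had a correlation of -0.29 with length and of 0.59 with GC content in the members, against -0.21 and 0.20 in all genes. Set against sgControl 2 and 3 alone, the sgMef2d levels had a stronger correlation with length, of -0.54 in the members and -0.32 in all genes, and correlations of 0.44 and 0.16 with GC content. The median of that difference was 0.19 in the 18 shortest members, 0.17 in the middle 18 and 0.072 in the longest 18. With each library's trend with length and GC removed, 10 members were called (Bysl, Ddx21, Ftsj3, Mybbp1a, Ncl, Nhp2, Nolc1, Polr1b, Rrp12 and Wdr43), against 5.38% of all genes called higher, 52 of 54 lay above 0, and the median was 0.089. The part of length and GC content in the differences between the groups was not tested.

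**Figure D4:**
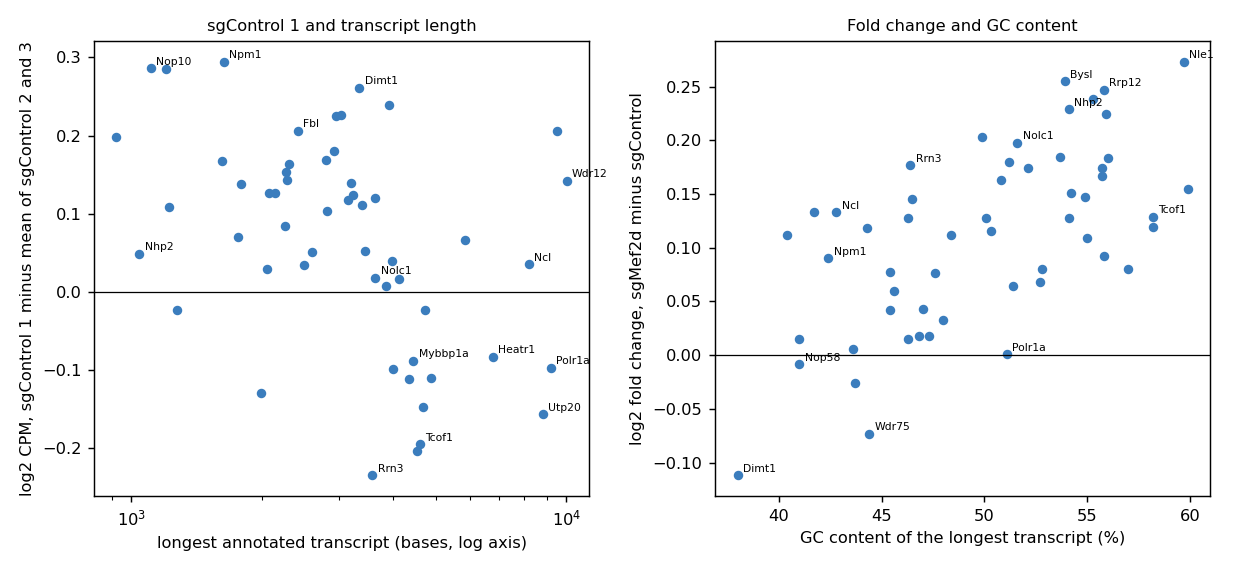
The 54 members by the length of their longest annotated transcript (log axis, bases) against the log2 deviation of sgControl 1 from sgControl 2 and 3, and by its GC percentage against the log2 fold change of sgMef2d over sgControl. The Spearman correlations are -0.47 and 0.59.

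Few further genes of the pathway were called. Of 124 further ribosome biogenesis genes tested, 103 had a log2 fold change above 0 (83.1%) and 21 below, with a median of 0.089, and 3 rose (2.42%, against 3.67% of all genes called higher). Pop1, a subunit of RNase MRP, had 86.9, 83.3 and 87.2 CPM in sgControl and 104 and 107 CPM in sgMef2d (log2 fold change 0.29, SE 0.060, adjusted p = 0.0117). Nol6 of the processome had 117, 136 and 143 CPM in sgControl and 159.7 and 162 CPM in sgMef2d (log2 fold change 0.29, SE 0.079, adjusted p = 0.0499). Ruvbl2, an ATPase of snoRNP assembly, had 123, 122 and 117 CPM in sgControl and 139 and 145 CPM in sgMef2d (log2 fold change 0.24, SE 0.058, adjusted p = 0.0293). The groups did not overlap in these genes. The calls of Pop1, Nol6 and Ruvbl2 were lost without sgControl 2, sgMef2d 1 or sgMef2d 2, that of Ruvbl2 also without sgControl 3 and with the replicate block (edgeR adjusted p = 0.081), and that of Nol6 also with RLE factors, library totals only, no filter, the filter at 1 CPM, the legacy form of the test and limma-voom. Of the 79 cytosolic ribosomal protein genes, 14 rose (17.7%) and 77 had a log2 fold change above 0, with a median of 0.13, but their summed level in sgControl 1, 66145 CPM, was above that of both sgMef2d libraries, 65994 and 65831 CPM, and above 58642 and 55540 CPM in sgControl 2 and 3. Of the 79 mitochondrial ribosomal protein genes, 4 rose (5.06%), 67 had a log2 fold change above 0 and 12 below, and the median was 0.12. Leaving out sgControl 1 gave 50, 76 and 43 calls in these lists, in a setting where the calls among all genes went from 992 to 3639 and 14.6% of all genes were called higher, and leaving out another library lowered them to between 0 and 8.

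**Figure D5:**
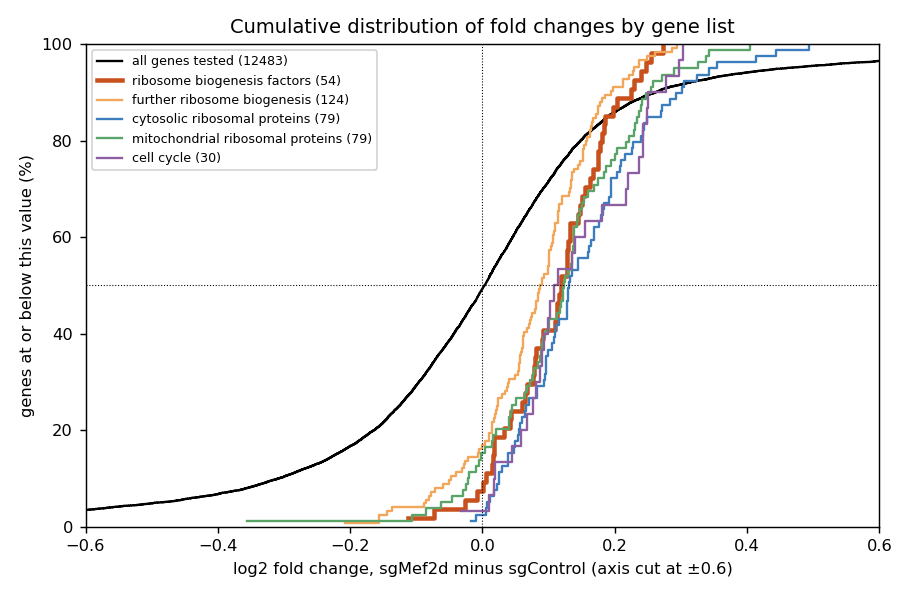
Cumulative share of genes (vertical axis) by log2 fold change of sgMef2d over sgControl (horizontal axis) for the 54 members, the further ribosome biogenesis, ribosomal protein and cell cycle lists and all 12483 genes tested. Around the median, the lists lie to the right of all genes, with medians of 0.12 for the members, 0.089 to 0.13 for the other lists and 0.0031 for all genes.

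Myc and 6 of 30 cell cycle genes also rose in sgMef2d cells. Myc, which encodes the transcription factor known to drive ribosome biogenesis genes, had 180, 191 and 191 CPM in sgControl and 237 and 225 CPM in sgMef2d (log2 fold change 0.30, SE 0.059, adjusted p = 0.00885), and both sgMef2d libraries lay above every sgControl library. Its adjusted p was 0.192 without sgMef2d 1 and 0.0901 without sgMef2d 2. The cell cycle genes that rose were Aurka, Aurkb, Cdc20, Plk1, Tk1 and Tyms (6 of 30, against 3.67% of all genes called higher). A log2 fold change above 0 was found in 29 of the 30, against 50.7% of all genes, and the median was 0.11. Their summed level was 6563, 6594 and 6620 CPM in sgControl and 7150 and 7139 CPM in sgMef2d, and without single libraries between 0 and 18 of them were called, in settings where 1.06% to 14.6% of all genes were called higher. The part of Myc and of the cell cycle in the levels of the ribosome biogenesis factors was not tested.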

How the data were processed

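Poly(A) RNA of 3 sgControl and 2 sgMef2d EpH4 samples was made into libraries that mark the strand with dUTP. The authors aligned the reads to GRCm38 with STAR and deposited the gene counts unnormalized. The submitters' processing notes also name CASAVA and Subread, and the strand setting of the counting is not given in the sources used here. Each of the 12934 genes reached at least 11 counts in a library, so a filter on low counts had been applied before deposit. Identifiers were matched to GENCODE M21 symbols, 12934 of 12934. Per-sample columns left unused numbered 0, and 0 entries lacked a gene name.

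Libraries were grouped by the labels. In R 4.3.3, edgeR 4.0.16 was used to compute TMM factors from 0.996 to 1.00 and to test 12483 genes (default expression filter by group, quasi-likelihood test with legacy set to false, no covariate, Benjamini-Hochberg over all genes tested, threshold 0.05). The biological coefficient of variation was 0.0607. Log2 levels used a prior count of 2. Library totals ran from 13601145 to 20498563. The members had 361 to 54111 counts per gene and library, and counting error was larger for those with few counts, such as Nle1. PCR copies were not identified. Alternatives were other normalizations and filters, the legacy quasi-likelihood form, DESeq2 1.42.0, limma-voom (limma 3.58.1), a replicate block, removal of each library's loess trend (span 0.3) with transcript length and GC content, and leaving out each library.

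The members and lists were chosen with earlier results of these data known. Levels in each library are given for the 2 members of each role with the smallest p and the 1 with the largest, with Mef2d, Myc and the further ribosome biogenesis genes with the 2 highest log2 fold changes past the threshold. Dimt1, Nle1, Wdr75, Ncl, Ruvbl2 and the other members given by value were added after their values were seen. Sequences came from RefSeq promoters. In 46 of 57 member windows the first 30 bases after the start lay within the first 400 bases of a GENCODE M21 transcript. In 25 of the 57 they lay exactly at a transcript start. The fit was tested on simulated counts of 12320 genes for sgMef2d against sgControl. It recovered 14 of 49 genes changed by 1.25-fold, 34 of 49 by 1.5-fold, 42 of 49 by 2-fold and 50 of 50 by 4-fold, with 6 of 12134 unchanged genes called, and 0 of 12320 called with none changed. The simulated counts held no trend with length or GC content and no library that stood apart as sgControl 1 did. These rates therefore need not hold for the real counts. Protein sequences were not used here.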

Additional observations from a re-analysis of the deposited data

How the results depend on the processing

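The median log2 fold change of the members was between 0.089 and 0.15 under all 15 alternatives. The 4 calls became 3 to 5 under other normalizations, filters and tools, with 2.98% to 3.82% of all genes called higher. They became 10 with the length and GC trend removed, against 5.38% of all genes. Without single sgControl libraries they became 0 to 33, against 2.40% to 14.6% of all genes. That trend removal also gave 11 calls among the further ribosome biogenesis genes and 9 among the mitochondrial ribosomal protein genes. Leaving out single libraries gave at most 50 and 43 calls there, 76 among cytosolic ribosomal protein genes and 18 among cell cycle genes. Without sgControl 1, 14.6% of all genes were called higher, and the calls among all genes in either direction went from 992 to 3639. With the replicate number as a block, 2 members (Rrp1 and Rrp12, 1 of the 4 among them) and 9 cytosolic ribosomal protein genes were called. The labels do not say that the numbers pair the libraries, and same-numbered libraries had correlations of their deviations from the group means of 0.0113 and -0.000916. Over the 28 named genes, 344 of 420 values kept their direction and side of the threshold, 34 lost the call, 21 gained it, 14 of these without sgControl 1, and 21 reversed, all in 5 genes that were not called. The log2 fold change of Nop58 was 0.088 with the trend removed and from -0.049 to 0.064 without single libraries. That of Dkc1 was -0.0020 with library totals only, -0.037 with the block, and -0.039 to 0.065 without single libraries. That of Gnl3 was -0.0029 with the block and -0.021 to 0.070 without single libraries. That of Mphosph10 was -0.0027 with the block and -0.013 to 0.066 without single libraries. That of Polr1a was -0.00013 with RLE, -0.0067 with library totals only, -0.00079 with no filter, -0.00050 with the CPM filter, and -0.032 to 0.029 without single libraries. E-boxes were held by 22.9% of members against 12.1% of the genes tested, but upstream of the start only by 8.33% against 10.2%, which turns the excess into a deficit. The cause of these changes was not tested. The self-test held no change as small as those of the members, whose highest was 1.21-fold, and uncalled members are not shown to be equal.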
